A study of Mus musculus with 24 samples.

Results

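The glucose transporter Slc2a1 and 9 enzymes of glycolysis (Hk2, Pfkl, Aldoa, Tpi1, Gapdh, Pgk1, Eno1, Pkm and Ldha) were followed through 24 RNA libraries of GT1-7 cells, a mouse cell line of immortalised hypothalamic neurons that secrete gonadotropin-releasing hormone. The 10 genes were taken by name, and they occupy 11 of the 57010 gene rows in each of the deposited count tables, because Aldoa has a second row under another identifier. An RNA immunoprecipitation (RIP) experiment used cells transfected for 24 h with 6 µg of a GFP plasmid or a GFP-Mkrn3 plasmid. RNA was taken from 5% of the lysate (input) and from the material held on GFP-trap beads (IP), giving 4 groups of 3 libraries: GFP input, GFP IP, GFP-Mkrn3 input and GFP-Mkrn3 IP. The fractionation compared unmodified cells (labelled wt) with cells labelled Mkrn3ox, described as stably expressing GFP-Mkrn3, in total RNA and in cytoplasmic RNA, again as 4 groups of 3 libraries. The sources used here give neither the promoter that drives GFP-Mkrn3 nor whether the stable line is 1 clone. They do not tie replicate libraries to separate cultures, so a p-value reflects a spread that may be technical. Mkrn3 encodes makorin ring finger protein 3, a RING-domain zinc-finger protein, and the series title names its RNA binding as the subject.

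Glycolysis breaks glucose down to pyruvate and yields ATP without using oxygen. Slc2a1 (GLUT1) lets glucose into the cell, Hk2 phosphorylates it, Pfkl adds another phosphate at the committed step, and Aldoa and Tpi1 turn the product into triose phosphates. Gapdh oxidises the triose phosphate, Pgk1 and Pkm make ATP, Eno1 removes water between these steps, and Ldha reduces pyruvate to lactate. In neurons glucose is the main fuel, and several of these genes are textbook targets of hypoxia-inducible factor, which binds DNA at a short core motif.

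The genes lie on 6 chromosomes of GRCm38.p6, the same assembly as mm10, and differ widely in the stretch of genome they span. RefSeq gives Tpi1 at chr6:124810586-124814158, Gapdh at chr6:125161852-125166467 and Aldoa at chr7:126795234-126800994, spans of 3.6, 4.6 and 5.8 kb. Hk2 lies at chr6:82725025-82774454 and covers 49.4 kb. The other 6 genes span 12.2 kb (Eno1) to 28.6 kb (Slc2a1). The 250 bases before an annotated start are shown from RefSeq for Hk2 and Tpi1, the genes with the longest and the shortest span, which moved in opposite directions in the GFP pull-down, and for Ldha, which held the most motif matches. They run 5′ to 3′ along the gene, and capitals mark ACGTG or GCGTG on either strand, the core to which hypoxia-inducible factor is known to bind, and CACGTG, the palindrome known as an E-box.
Hk2 (minus strand, chr6:82774455-82774704): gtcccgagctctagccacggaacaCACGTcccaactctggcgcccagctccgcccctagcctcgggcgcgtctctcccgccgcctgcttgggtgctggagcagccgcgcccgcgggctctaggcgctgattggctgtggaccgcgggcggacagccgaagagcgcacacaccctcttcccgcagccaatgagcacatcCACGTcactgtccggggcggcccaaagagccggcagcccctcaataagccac
Tpi1 (minus strand, chr6:124814159-124814408): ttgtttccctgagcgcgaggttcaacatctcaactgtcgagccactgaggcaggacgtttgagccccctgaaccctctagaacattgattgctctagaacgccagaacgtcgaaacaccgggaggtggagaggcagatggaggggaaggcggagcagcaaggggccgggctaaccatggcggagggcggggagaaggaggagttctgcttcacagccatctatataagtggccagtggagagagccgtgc
Ldha (plus strand, chr7:46845554-46845803, a start inside the gene's span): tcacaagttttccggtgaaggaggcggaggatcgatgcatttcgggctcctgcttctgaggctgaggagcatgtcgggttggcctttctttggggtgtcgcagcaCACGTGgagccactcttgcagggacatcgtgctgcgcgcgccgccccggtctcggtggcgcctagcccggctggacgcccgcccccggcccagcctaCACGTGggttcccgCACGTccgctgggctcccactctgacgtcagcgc
Hk2 held 2 matches, Tpi1 held 0, and Ldha held 5, counting each of its 2 CACGTG on both strands because ACGTG reads within it either way. ACGTG or GCGTG was present before at least 1 start of 9 of the 10 genes and in 13 of their 16 promoter windows, against 38.6% of 32851 mouse promoter windows of that length. ACGTG alone was present in 7 of the 16 windows against 16.6%, GCGTG in 7 against 28.2%, and CACGTG in 1 against 6.02%. Some windows of Eno1 and of Aldoa overlap, so the same match can count in more than 1 window. The shares over mouse promoters are per window and give no background for the count of 9 of 10 genes. All of these motifs contain CG, and the members' windows held 50.4 to 71.2% G and C. The shares over mouse promoters were not matched for that content, so they do not show an excess of the motifs themselves. A match is a description of the letters, and RNA counts do not measure binding to DNA.

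The RIP libraries held 6254703 to 14575652 counts each and the fractionation libraries 374386 to 759271. The 11 rows took 0.39 to 0.498% of the counts in RIP libraries and 0.0791 to 0.126% in fractionation libraries. Mkrn3 had 33 to 60 counts in libraries with the GFP plasmid, 28280 to 32451 in GFP-Mkrn3 inputs and 86579 to 141568 in GFP-Mkrn3 IPs. In the fractionation table the Mkrn3 row held 0 to 5 counts per library, with 0 in the 3 total RNA libraries labelled Mkrn3ox, so that row does not check the label. In the GFP inputs Gnrh1 stood at 313 and the neuronal marker Map2 at 66.5 CPM (counts scaled to library depth by the TMM method), while 4 of 9 neuronal markers (Snap25, Stmn2, Nefl and Elavl4) were at 0. The 8 glial markers summed to 17.3 CPM with 4 at 0, and the 8 markers of fibroblasts, endothelium and immune cells summed to 186 CPM, of which the collagens Col1a2 and Col1a1 made 154 and 27.9. All 10 genes were tested in the RIP table (13052 rows tested) and 7 of 10 in the fractionation table (5033 rows tested), where Hk2, Pgk1 and Pfkl were too sparse. The members averaged 651 to 20573 counts per RIP library against a median of 255 over all rows tested there, and the 7 tested in the fractionation averaged 5.08 to 430 against 19.6.

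The GFP and GFP-Mkrn3 inputs asked whether the plasmid itself moved these RNAs. None of the 11 rows passed the edgeR quasi-likelihood test at a Benjamini-Hochberg adjusted p under 0.05, where 0.0153% of all rows did (2 of 13052). None had an unadjusted p under 0.05, where 734 of 13052 rows did, and DESeq2 called 0. The log2 fold changes, GFP-Mkrn3 over GFP, ran from -0.11 for Eno1 to 0.40 for the second Aldoa row, which held 3 to 14 counts per input library. Levels in the 2 input groups overlapped for every gene, as in Pgk1 with 228 ± 2.77 CPM under GFP and 230 ± 9.94 under GFP-Mkrn3 (SD, n = 3 each). In such bulk libraries, fewer cells with an RNA and less of it per cell cannot be told apart.

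**Figure D1:**
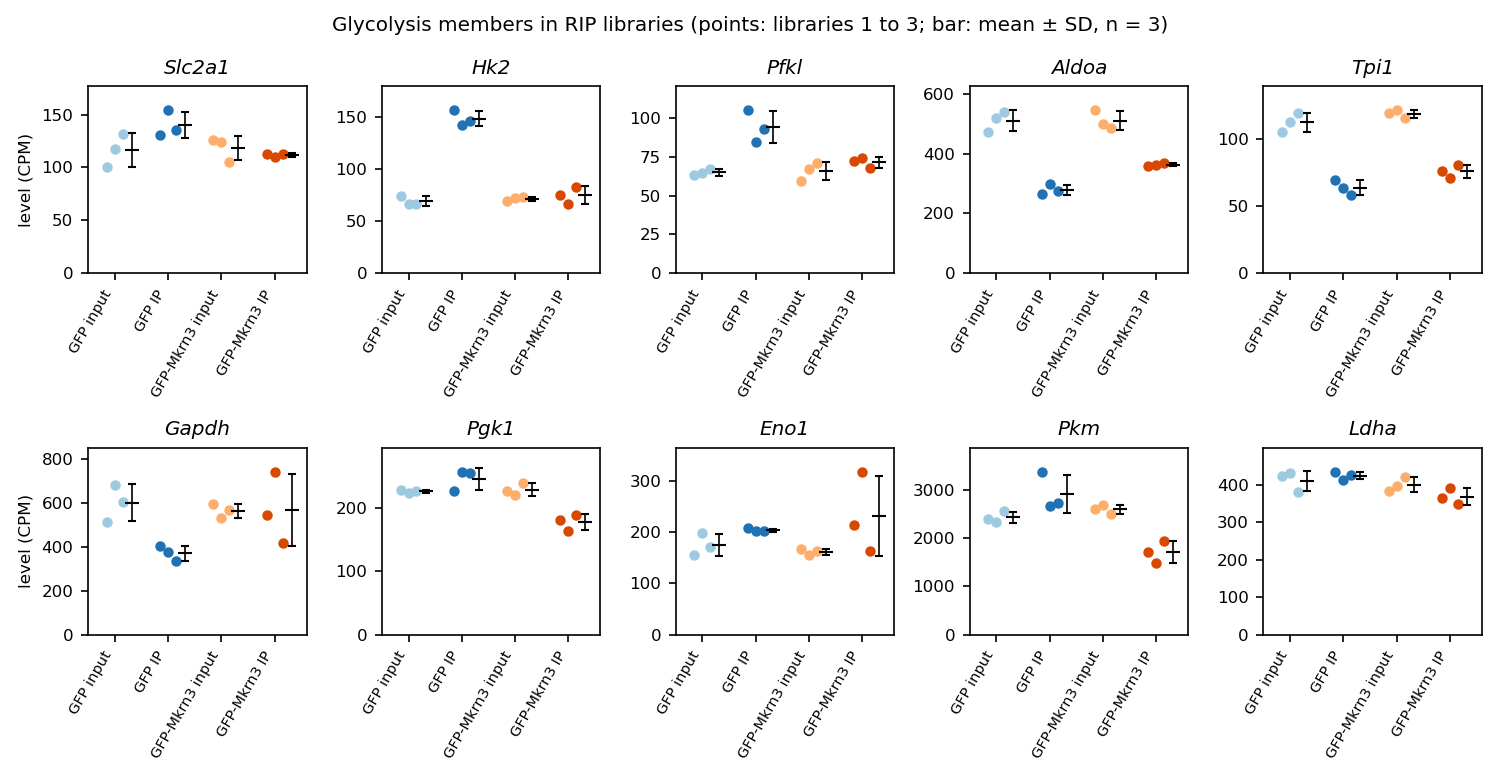
Levels of the 10 genes in CPM (vertical axis, from 0, its own scale for each gene) in the 4 RIP groups; points are libraries 1 to 3 and bars the mean ± SD (n = 3). Hk2 stands at 142 to 156 CPM in the GFP IPs and at 65.8 to 82.9 in all 9 other libraries, and 1 GFP-Mkrn3 IP library lies above the rest for Gapdh and Eno1.

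The GFP pull-down was the control of the RIP experiment, and most of these RNAs differed in level between it and its input. Levels are counts scaled to library depth, so a rise or fall is relative to the other rows. It does not measure the amount of an RNA on the beads. Against their own inputs, Hk2, Pfkl, Pkm and Slc2a1 rose in the GFP IP, Aldoa, Tpi1 and Gapdh fell, and Ldha, Pgk1 and Eno1 did not pass the test. That is 4 higher and 3 lower of 10 genes, where 50.3% of all rows tested were called (25.1% higher, 25.2% lower). With library size alone as the scaling, which moves the median of all genes to -0.11, the split was 2 higher and 3 lower. The GFP-Mkrn3 pull-down gave another pattern: Eno1 was called higher, Tpi1, Pkm, Aldoa and Pgk1 fell, and the other 5 genes did not pass the test, against 26.7% of all rows called (13.9% higher, 12.8% lower). The test of the difference between these IP-to-input ratios called 6 of 10 genes, Gapdh and Aldoa higher with GFP-Mkrn3 and Hk2, Pkm, Pgk1 and Pfkl lower, against 24.3% of all rows (13.2% higher, 11.1% lower). On library size alone, which moves the median of all genes to 0.23, that split was 3 higher (Tpi1 added) and 2 lower (Hk2 and Pkm). The GFP-Mkrn3 IP set directly against the GFP IP gave 3 higher and 6 lower of 10 genes against 37.6% of all rows (20.4% higher, 17.2% lower), and 3 and 3 on library size alone, where the median of all genes moves to 0.21. The shares of all rows called on library size alone are not given here. These comparisons share libraries and are not independent of each other. The members' counts are higher than those of most rows, so their shares of calls and the shares over all rows come from different depths.

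**Figure D2:**
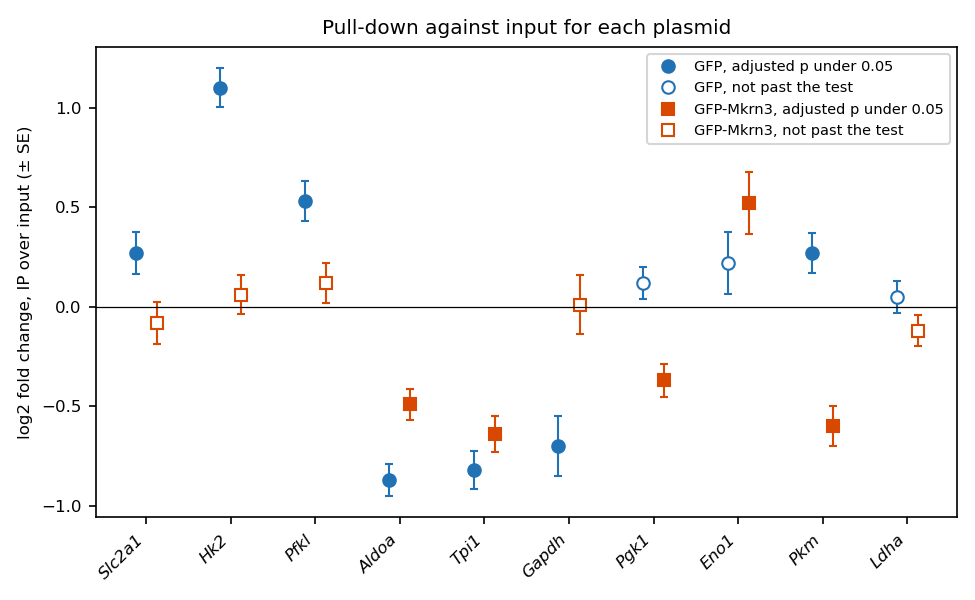
Log2 fold change of IP over input (vertical axis, ± SE) for each gene with the GFP plasmid (blue circles) and the GFP-Mkrn3 plasmid (orange squares); filled symbols have an adjusted p under 0.05. Hk2 is at 1.10 with GFP and 0.06 with GFP-Mkrn3, while Aldoa and Tpi1 lie below 0 with both.

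At the entry of glucose, Hk2 carried the largest shift of the 10 genes. Its GFP inputs stood at 74.3, 66.4 and 66.2 CPM and its GFP IPs at 156, 142 and 146 CPM (libraries 1, 2 and 3). The GFP-Mkrn3 inputs stood at 69, 72.1 and 72.6 and the GFP-Mkrn3 IPs at 74.7, 65.8 and 82.9 CPM. The 3 GFP IPs were high, and the other 9 libraries lay together far below them. Hk2 thus rose by 1.10 on the log2 scale in the GFP IP (SE 0.0974, edgeR adjusted p = 4.2e-08) and stood 0.06 from its input in the GFP-Mkrn3 IP (SE 0.0972, edgeR adjusted p = 0.677). Between the plasmids the ratio differed by -1.04 (SE 0.137, edgeR adjusted p = 6.25e-05). Over all alternatives it ran from -1.13 to -0.85 and stayed past the threshold.

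Slc2a1 moved the same way by a small amount. It stood at 100, 117 and 132 CPM in GFP inputs and 131, 154 and 135 in GFP IPs, groups that overlapped. It stood at 126, 124 and 105 in GFP-Mkrn3 inputs and 113, 110 and 113 in GFP-Mkrn3 IPs. The rise in the GFP IP was 0.27 (SE 0.105, edgeR adjusted p = 0.0421). It missed the threshold without GFP input 1 (0.16), GFP input 2 (0.27), GFP IP 2 (0.19) or GFP IP 3 (0.29), with no filter (0.24) and on library size alone (0.16). The GFP-Mkrn3 IP was 0.33 lower than the GFP IP on the log2 scale, a value of -0.33 (SE 0.104, edgeR adjusted p = 0.0192) that missed the threshold without GFP IP 2 (-0.25) or GFP-Mkrn3 IP 1 (-0.33) and on library size alone (-0.15). For Slc2a1 the ratios differed by -0.35, at an edgeR adjusted p of 0.0958.

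Pfkl, the liver-type phosphofructokinase subunit of the committed step, followed Hk2 at a lower amplitude. Its levels were 63.1, 64.7 and 67.3 CPM in GFP inputs and 105, 84.9 and 93.1 in GFP IPs, with no overlap. With GFP-Mkrn3 they were 59.6, 67.2 and 71 in inputs and 72.6, 74.1 and 67.5 in IPs, which overlapped. Pfkl rose by 0.53 in the GFP IP (SE 0.101, edgeR adjusted p = 0.000237) and stood 0.12 from its input in the GFP-Mkrn3 IP (SE 0.10, edgeR adjusted p = 0.416). The difference of -0.42 passed narrowly (SE 0.142, edgeR adjusted p = 0.039). It no longer passed, at -0.44 to -0.33, when the fit left out 1 of GFP inputs 1 to 3, GFP IPs 1 or 3, GFP-Mkrn3 inputs 2 or 3, or GFP-Mkrn3 IP 1. It was -0.40 with no filter and -0.22 on library size alone, both short of the threshold. The log2 levels of Hk2 and Pfkl had a Pearson r of 0.898 over the 12 RIP libraries, a description over libraries that share groups.

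Aldoa, which cleaves fructose bisphosphate, stood lower than input in both pull-downs. Its levels were 474, 522 and 540 CPM in GFP inputs and 267, 298 and 274 in GFP IPs. They were 546, 502 and 486 in GFP-Mkrn3 inputs and 361, 363 and 369 in GFP-Mkrn3 IPs. Every IP library lay below every input library, and every GFP IP below every GFP-Mkrn3 IP. Aldoa fell by 0.87 in the GFP IP (SE 0.0803, edgeR adjusted p = 7.14e-08) and by 0.49 in the GFP-Mkrn3 IP (SE 0.0793, edgeR adjusted p = 0.000266). The difference of 0.38 (SE 0.112, edgeR adjusted p = 0.019) missed the threshold without GFP input 3 (0.34) or GFP-Mkrn3 inputs 2 (0.37) or 3 (0.35). The second Aldoa row stood at 1.01 to 2.29 CPM over the 4 group means and passed no test.

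Tpi1, which interconverts the triose phosphates, was lower than input in both pull-downs. The levels were 105, 112 and 119 CPM in GFP inputs and 69.4, 63 and 58 in GFP IPs, then 119, 121 and 115 in GFP-Mkrn3 inputs and 75.9, 70.8 and 80.4 in GFP-Mkrn3 IPs. All 6 IP libraries lay under all 6 inputs. Tpi1 fell by 0.82 with GFP (SE 0.0944, edgeR adjusted p = 1.07e-06) and by 0.64 with GFP-Mkrn3 (SE 0.092, edgeR adjusted p = 8.11e-05). The difference between the ratios, 0.17 (SE 0.131, edgeR adjusted p = 0.369), did not pass the test; on library size alone it was 0.37 and passed. IP against IP gave 0.25 (edgeR adjusted p = 0.0434), which fell short of the threshold in 9 of 12 alternatives, among them leaving out GFP IP 2 (0.24) or 3 (0.19) or GFP-Mkrn3 IP 1 (0.25) or 3 (0.20). Aldoa and Tpi1 had the highest correlation of any pair of member rows, a Pearson r of 0.963 over the 12 libraries.

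Gapdh, the oxidising step, was lower in the GFP IP and spread widely in the GFP-Mkrn3 IP. It stood at 516, 685 and 605 CPM in GFP inputs and at 404, 375 and 334 in GFP IPs, without overlap. It stood at 598, 534 and 567 in GFP-Mkrn3 inputs and at 546, 743 and 417 in GFP-Mkrn3 IPs, where 1 library was above all inputs and 1 below them all. Gapdh fell by 0.70 with GFP (SE 0.149, edgeR adjusted p = 0.000704), and its GFP-Mkrn3 ratio was 0.01 (SE 0.147, edgeR adjusted p = 0.979). Without GFP-Mkrn3 IP 2, the library at 743 CPM, that ratio was -0.23 (edgeR adjusted p = 0.145). The difference between the ratios was 0.70 (SE 0.209, edgeR adjusted p = 0.0199) and 0.46 without that library (edgeR adjusted p = 0.0295). It missed the threshold without GFP input 2 (0.60), GFP IP 3 (0.63) or GFP-Mkrn3 input 2 (0.66).

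Pgk1, the first ATP-forming enzyme of the pathway, was lower in the GFP-Mkrn3 IP. Its GFP inputs were 230, 225 and 227 CPM and its GFP IPs 227, 258 and 256. Its GFP-Mkrn3 inputs were 227, 222 and 241 and its GFP-Mkrn3 IPs 182, 164 and 190, below every other library. Pgk1 stood 0.12 from its input with GFP (SE 0.0819, edgeR adjusted p = 0.246) and fell by 0.37 with GFP-Mkrn3 (SE 0.0819, edgeR adjusted p = 0.00299). The difference of -0.48 (SE 0.116, edgeR adjusted p = 0.00551) was -0.29 and short of the threshold on library size alone.

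Pkm, the pyruvate kinase gene, was also lower in the GFP-Mkrn3 IP, and it had the highest counts of the 10 genes, 16092 to 26353 per RIP library. It stood at 2405, 2346 and 2567 CPM in GFP inputs and 3385, 2681 and 2730 in GFP IPs. It stood at 2608, 2694 and 2518 in GFP-Mkrn3 inputs and 1721, 1486 and 1939 in GFP-Mkrn3 IPs, the 3 lowest libraries of the 12. Pkm fell by 0.60 with GFP-Mkrn3 (SE 0.101, edgeR adjusted p = 0.000335). With GFP it was higher by 0.27 (SE 0.101, edgeR adjusted p = 0.0344), short of the threshold without GFP input 1 (0.24), GFP input 2 (0.24) or GFP IP 1 (0.14) and on library size alone (0.15). Between the plasmids the ratio differed by -0.87 (SE 0.142, edgeR adjusted p = 0.000392) and lay between -0.97 and -0.68 over all alternatives, always past the threshold. Pgk1 and Pkm had a Pearson r of 0.861 over the 12 libraries.

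Eno1, enolase, was called higher in the GFP-Mkrn3 IP, and that call rested on 1 library. Its levels were 155, 197 and 171 CPM in GFP inputs, 207, 202 and 202 in GFP IPs and 166, 155 and 163 in GFP-Mkrn3 inputs. In the GFP-Mkrn3 IPs they were 213, 317 and 163, so that 1 library stood far above the rest and 1 was within its inputs. The rise was 0.52 (SE 0.156, edgeR adjusted p = 0.0178), and 0.23 without GFP-Mkrn3 IP 2 (edgeR adjusted p = 0.135). It was also short of the threshold without GFP-Mkrn3 input 2 (0.49) and with only the compared groups in the fit (0.55). The library with the Eno1 excess is the one with the Gapdh excess. Between the plasmids the ratio differed by 0.30 (edgeR adjusted p = 0.35); it was 0.00 without GFP-Mkrn3 IP 2 and 0.50, past the threshold, without GFP-Mkrn3 IP 3.

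Ldha, lactate dehydrogenase A, did not pass the test against input in either pull-down. Group means were 411 ± 26.8 CPM in GFP inputs, 424 ± 10.3 in GFP IPs, 399 ± 19.9 in GFP-Mkrn3 inputs and 368 ± 22.9 in GFP-Mkrn3 IPs (SD, n = 3 each). Its IP-to-input values of 0.05 and -0.12 and their difference of -0.17 did not pass the test (edgeR adjusted p = 0.641, 0.29 and 0.307). IP against IP was -0.20 at an edgeR adjusted p of 0.0487, and fell short of the threshold in 9 of 12 alternatives, among them leaving out any 1 GFP IP (-0.22 to -0.19) or GFP-Mkrn3 IPs 1 (-0.20) or 3 (-0.16).

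The shift in the GFP pull-down ran with the length of genome a gene spans. This relation, with its cut at 6 kb just above the span of Aldoa (5.8 kb), was chosen after the values were seen. It is given as a description with no test. Over the 10 genes, Spearman's rho between span and the log2 IP-to-input change was 0.915 with GFP, against 0.416 over 11963 other genes tested. Tpi1, Gapdh and Aldoa, the 3 genes under 6 kb, are the 3 that fell, and Hk2, the longest, rose most. Among the other genes, the 1892 under 6 kb had a median change of -0.60 in the GFP IP and the longer ones 0.04. With GFP-Mkrn3, rho was 0.37 over the members and 0.086 over the other genes, and for the difference between the ratios it was -0.818 and -0.393. The genes in each of these values share the same 12 libraries, and 91.7% of rows tested had a span in RefSeq. The part of gene span in the shifts was not tested.

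**Figure D3:**
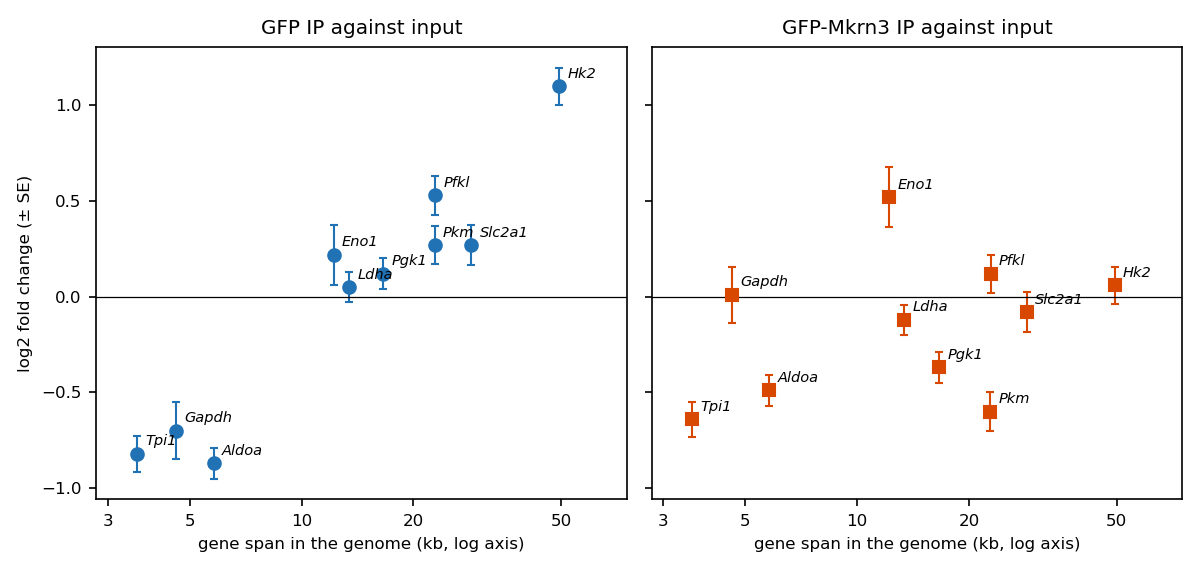
Log2 fold change of IP over input (vertical axis, ± SE) against the span of each gene in kb (log axis) for the GFP plasmid (left) and the GFP-Mkrn3 plasmid (right). On the left the 3 genes under 6 kb lie at -0.87 to -0.70 and Hk2, at 49.4 kb, lies at 1.10; on the right Pkm, at 22.8 kb, lies at -0.60.

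Genes linked to these enzymes, from lists drawn up with earlier results of these data known, gave calls in both directions. Of 18 other glycolysis genes tested in the RIP table, 5 rose and 2 fell in the GFP IP, where 50.3% of all rows were called, and 3 were higher and 3 lower between the IPs, where 37.6% were. Among them 3 other hexokinase and phosphofructokinase genes, chosen after their values were seen, were higher in the GFP IP: Hk1 rose from 262 to 387 CPM, Pfkm from 199 to 291 and Pfkp from 42.5 to 85.7, log2 changes of 0.56, 0.55 and 1.01 (edgeR adjusted p = 3.24e-05, 2.16e-05 and 2.77e-06). In the IP-to-input difference all 3 were lower with GFP-Mkrn3, at -0.73, -0.56 and -0.90. Bsg (basigin), a chaperone of lactate transporters, fell from 507 to 229 CPM in the GFP IP (-1.14, edgeR adjusted p = 2.17e-07) and had a difference of 0.93. The intracellular glucose transporter Slc2a8 had a difference of 1.29 (edgeR adjusted p = 0.00401), and 2 genes of this list were called higher and 3 lower there, against 24.3% of all rows. The GFP-Mkrn3 IP held 3 of the 18 above input, Pfkfb1 (0.87), Pgam1 (0.78) and Slc2a8 (0.56), and 0 below, against 26.7% of all rows called.

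Of 12 genes for the entry of pyruvate into mitochondria, 2 rose and 5 fell in the GFP IP, and 0 rose and 5 fell in the GFP-Mkrn3 IP. The shares over all rows, against which the counts of this and the next lists stand, were 50.3% in the GFP IP, 26.7% in the GFP-Mkrn3 IP and 24.3% in the difference between the ratios. The subunits of the mitochondrial pyruvate carrier fell furthest in the GFP IP, Mpc1 from 16.8 to 4.54 CPM (-1.89) and Mpc2 from 20.3 to 6.99 CPM (-1.53). That difference called 2 higher, Mpc2 (1.68) and Mpc1 (0.80), and 1 lower, the pyruvate dehydrogenase phosphatase gene Pdp2 (-0.83). Of 7 pentose phosphate genes, 1 rose and 2 fell in each pull-down: Pgd (0.44), Rpia (-0.65) and Taldo1 (-0.54) with GFP, and Tkt (0.99), Rpia (-0.74) and Taldo1 (-0.57) with GFP-Mkrn3. Of 18 hypoxia-response genes outside glycolysis, 7 rose and 4 fell in the GFP IP, from -1.39 in Bnip3 to 0.79 in Hif1an, and 3 were higher and 3 lower in the difference. The medians of the GFP IP-to-input change were 0.22 over the 11 member rows, 0.23, -0.29, -0.36 and -0.13 over the 4 lists in this order, and 0.00 over all rows. For the difference between the ratios they were -0.17, then -0.06, 0.09, 0.24 and 0.00, and 0.04 over all rows.

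Outside the members, the genes whose log2 level ran closest to the members' mean over the 12 RIP libraries included Mkx and Nxpe3, with Pearson r of 0.953 and 0.917 among 11298 genes. Over the 12 fractionation libraries they included Nampt and B4galt5, at 0.921 and 0.913 among 2482 genes. The RIP mean ran over 11 rows, the sparse second Aldoa row among them, and the members did not all move together. Between pairs of member rows in the RIP libraries, Pearson r ran from -0.899 (Aldoa and Pfkl) to 0.963 (Tpi1 and Aldoa), with Hk2 and Gapdh at -0.88. Rows of 21 named copies of the members held at most 13 counts in a RIP library and 4 in a fractionation library, 0.0227% and 0.184% of the members' own counts.

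The fractionation asked how the RNAs stand in total and cytoplasmic RNA of cells labelled wt and Mkrn3ox, and no member passed the test in any of its 5 comparisons. The strand setting of the counting is not given, so the values are those of rows with the genes' names. Levels were unlike those in the RIP, normalised separately: Pkm stood at 40.1 CPM in wt total RNA and 2439 in GFP inputs, and Tpi1 at 809 and 112. The cause was not tested. In total RNA the 7 tested genes gave log2 changes, Mkrn3ox over wt, of 0.06 to 1.57 with a median of 0.41, against -0.01 over all rows, of which 7.39% were called. Gapdh was the 1 gene of the 7 with an unadjusted p under 0.05, where 928 of all 5033 rows had one. It stood at 82.9, 37.9 and 65.7 CPM in wt and 135, 77.3 and 118 in Mkrn3ox total RNA. These groups overlapped, and the change of 0.83 (SE 0.38) had an edgeR adjusted p of 0.243. Aldoa stood at 0, 14.8 and 5.36 CPM in wt and 7.31, 29.5 and 24.9 in Mkrn3ox, overlapping groups (1.57, SE 0.883, edgeR adjusted p = 0.368). DESeq2 called 0 of the members in total RNA.

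In cytoplasmic RNA the change of the 7 genes ran from -0.42 to 2.54 with a median of 1.68, against 0.03 over all rows, of which 10.5% were called. Library size alone moves the median of all genes here to 0.38. Markers of cell types also differed between the lines. Of 9 neuronal markers, 3 were tested and 1 was called: Uchl1, a neuronal ubiquitin hydrolase, rose from 3.6 to 173 CPM in cytoplasm (5.60, edgeR adjusted p = 1.05e-05) and from 2.54 to 84 in total RNA (4.88, edgeR adjusted p = 4.02e-05). The summed neuronal list was 106 to 223 CPM in wt and 383 to 429 in Mkrn3ox cytoplasm libraries, and 90.1 to 135 and 208 to 298 in total RNA, with Elavl4 and Nefl at 0 in all 4 groups. These sums include Uchl1. The other tested neuronal markers, Gnrh1 and Map2, were not called, at 0.41 (109 to 146 CPM) and 0.42 (63.7 to 84.5 CPM) in cytoplasm. In total RNA they stood at 0.22 and 0.96. Of 8 markers of fibroblasts, endothelium and immune cells, 2 were tested. Col1a2 fell in cytoplasm from 475 to 291 CPM (-0.71, edgeR adjusted p = 0.0346), and Col1a1 rose in total RNA from 6.03 to 52.5 CPM (3.05, edgeR adjusted p = 0.0262). In the other fraction neither was called: Col1a1 went from 7.29 to 26.6 CPM in cytoplasm (1.75), opposite to Col1a2 there, and Col1a2 stood at 0.16 in total RNA. That list summed to 437 to 563 CPM in wt and 292 to 376 in Mkrn3ox cytoplasm, and to 351 to 522 and 501 to 522 in total RNA, with Pecam1, Cdh5, Cd68 and Aif1 at 0 in all 4 groups. None of the 8 glial markers was tested, and their sums were 0 to 6.37 CPM in wt and 4.99 to 37.6 in Mkrn3ox cytoplasm and 1.8 to 16.5 and 0 to 7.31 in total RNA, with Gfap, Mog, Olig2 and Slc1a3 at 0 in all 4 groups. The mt-Nd6 row stood at 255310 CPM in wt and 104642 in Mkrn3ox cytoplasm, and a fit without it gave Aldoa 2.55 (edgeR adjusted p = 0.0597) and Pkm 1.69. The part of the marker differences in the members' values was not tested.

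In the cytoplasm, Aldoa gave 0, 10.6 and 27.3 CPM in wt cytoplasm (0, 5 and 10 counts) and 67.4, 81.4 and 73.2 CPM in Mkrn3ox cytoplasm (27, 32 and 35 counts). Its groups did not overlap, and the change of 2.54 (SE 0.854, unadjusted p = 0.0071) missed the threshold with an edgeR adjusted p of 0.0604. DESeq2 called it (2.57, DESeq2 adjusted p = 0.023), as did edgeR with no filter (2.54), with library size alone (2.86), with only the compared groups (2.56) and without wt cytoplasm 3 (3.63); leaving out another of the libraries compared gave edgeR adjusted p-values of 0.11 to 0.162. Pkm gave 5.17, 19.1 and 68.4 CPM in wt and 82.3, 96.7 and 115 in Mkrn3ox, a change of 1.68 (SE 0.603, edgeR adjusted p = 0.0791). Pkm passed without wt cytoplasm 3 (2.92, edgeR adjusted p = 0.00643), with library size alone (1.99) and with no filter (1.68), and leaving out another of the libraries compared gave 1.19 to 1.79.

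Ldha gave 2.59, 17 and 2.73 CPM in wt cytoplasm and 37.4, 20.4 and 18.8 in Mkrn3ox cytoplasm (1.68, SE 0.902, edgeR adjusted p = 0.271). The cytoplasm groups of Ldha did not overlap, like those of Aldoa and Pkm, and none of these 3 genes passed the test. The share of all rows whose groups do not overlap was not counted, so the non-overlap is a description only. Gapdh stood at 62.2 ± 13.6 and 82.4 ± 26.9 CPM (0.41, edgeR adjusted p = 0.593), with overlapping groups. Tpi1 stood at 918 ± 35.6 in wt and 813 ± 96.5 CPM in Mkrn3ox (SD, n = 3 each), a change of -0.17 (SE 0.168, edgeR adjusted p = 0.588) that was 0.17 on library size alone.

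Hk2 was too sparse for the filtered test in the fractionation, and its counts were lower in Mkrn3ox cytoplasm. The 3 wt cytoplasm libraries held 7, 6 and 9 Hk2 counts and the 3 Mkrn3ox cytoplasm libraries 0 each. With 3 counts over the group taken as the floor for Mkrn3ox, the pooled wt level was 7.63 times that floor. The floor covers the counting error of the Mkrn3ox zeros, and the ratio leaves out that of the 22 wt counts. With no filter on low counts, over 17726 rows whose share of calls is not given here, Hk2 had an edgeR adjusted p of 0.0339. In total RNA it held 8, 3 and 6 counts in wt and 3, 0 and 2 in Mkrn3ox, and these groups overlapped in counts. Pfkl held 0 counts in all wt cytoplasm libraries and 0, 1 and 3 in Mkrn3ox cytoplasm, and Pgk1 held 0 to 10 counts in every fractionation library.

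**Figure D4:**
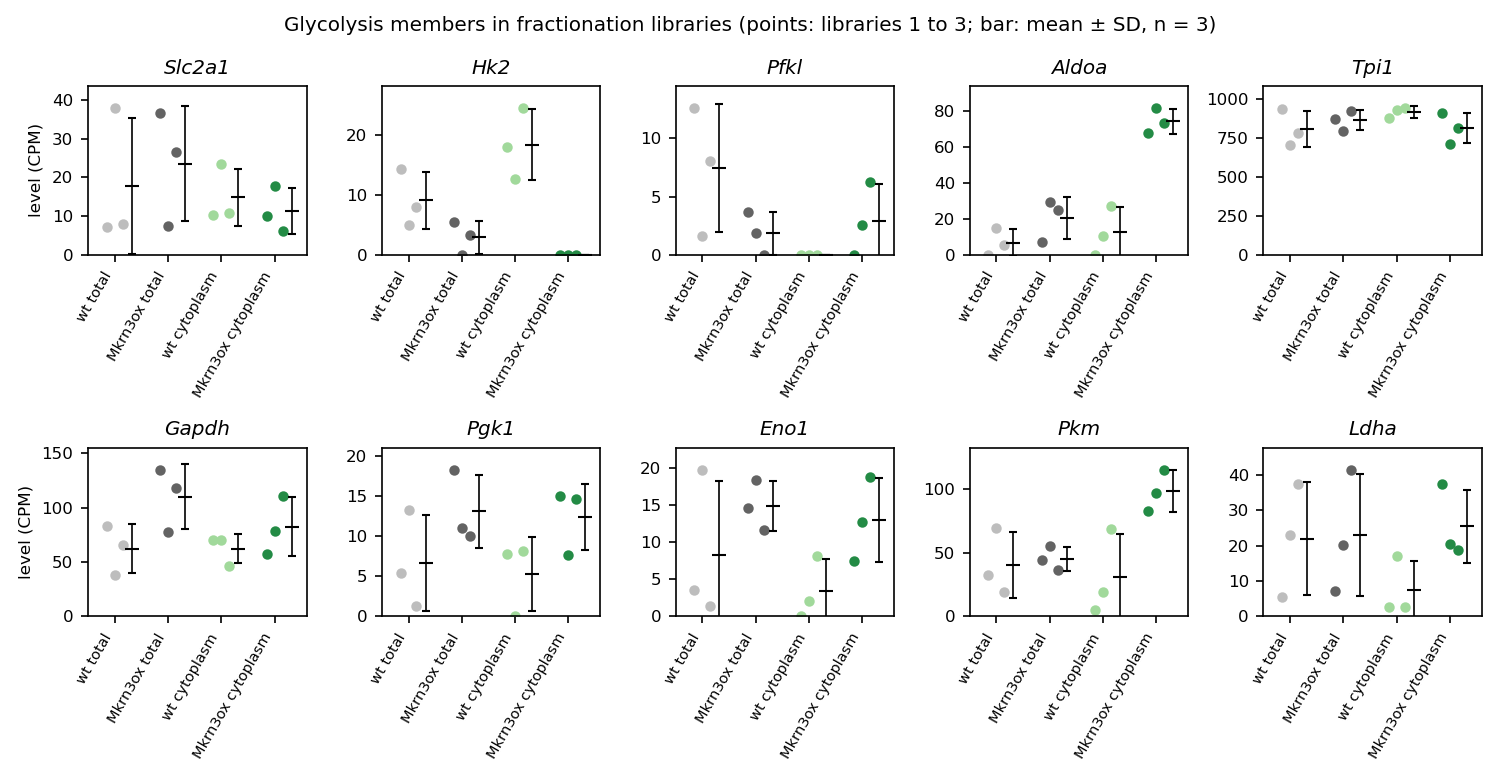
Levels of the 10 genes in CPM (vertical axis, from 0, its own scale for each gene) in total and cytoplasmic RNA of cells labelled wt and Mkrn3ox; points are libraries 1 to 3 and bars the mean ± SD (n = 3), drawn down to 0 where they would pass below it. Aldoa lies at 67.4 to 81.4 CPM in Mkrn3ox cytoplasm and at 0 to 29.5 in the other 9 libraries, and Hk2 is at 0 in all 3 Mkrn3ox cytoplasm libraries.

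In the cytoplasm-to-total ratio no member passed the test. In wt cells the 7 genes gave -1.49 to 0.86 (median -0.22), against 3.78% of all rows called. There 0 members were under an unadjusted p of 0.05, against 805 of 5033 rows. In cells labelled Mkrn3ox the 7 genes gave -1.05 to 1.83 (median -0.09), against 4.53% called. Aldoa, at 1.83 (SE 0.792, edgeR adjusted p = 0.216), was the 1 gene with an unadjusted p under 0.05, against 898 of 5033 rows. It was called with only the compared groups in the fit. The difference between the lines in the cytoplasm-to-total ratio was -0.83 to 1.62 over the members (0.219% of all rows called). In it 0 members were under an unadjusted p of 0.05, against 485 of 5033 rows. DESeq2 called 0 members in each of these 3 comparisons. On library size alone the median of all genes moves to -0.22 in the wt ratio and 0.27 in the difference between the lines. Bsg was the 1 linked gene called in the fractionation: 60.1 CPM in wt and 17.3 in Mkrn3ox cytoplasm (-1.77, edgeR adjusted p = 0.0362).

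Tpi1 differed from the other members in how its level compared between the tables, which were normalised separately. Its wt total level of 809 CPM was 7.22 times its GFP input level of 112 CPM, at the 98th percentile of 9024 rows with at least 10 CPM in the GFP input, whose median ratio was 0.177. The other 9 genes had ratios of 0.0132 (Aldoa) to 0.152 (Slc2a1). Pkm, for one, stood at 2439 CPM in GFP inputs and 40.1 in wt total RNA. The Tpi1 counts were even across the fractionation, 281 to 585 per library. Tpi1 overlaps Spsb2 on the opposite strand by 34 bp, and Usp5 lies 860 bp away. Spsb2 held 2 to 14 counts per fractionation library and 359 to 548 per RIP input. The other overlap of a member with a neighbour was that of Slc2a1 with Gm12867, 1881 bp on the opposite strand, and Gm12867 held 0 counts in the fractionation libraries and the RIP inputs. The mitochondrial row mt-Nd6 took 88029 to 255310 CPM in the fractionation groups and 228 to 2090 in the RIP groups, and its part in the members' ratios was not tested. The sources used here do not give the strand setting of the counting, so each fractionation value is that of the row with the gene's name.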

How the data were processed

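The labels' protocols name CEL-seq2, which sequences transcripts from their 3′ end, for all 24 libraries in 8 groups of 3. Per the submitters' processing notes, cutadapt, STAR, HTSeq and mm10 were used. The sources used here do not give the versions, the annotation, the strand setting or how molecular identifiers were handled. The deposited values are raw counts per gene from the authors in 57010 rows, 1606 without a gene name. The RIP table holds identifiers alone, and names were joined by identifier from the fractionation table.

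Each experiment was fitted separately in edgeR 4.0.16 (R 4.3.3, limma 3.58.1): filterByExpr by group (minimum count 10), TMM scaling, 4 group means, quasi-likelihood F test, two-sided, and Benjamini-Hochberg adjustment over all rows tested, with a call at an adjusted p under 0.05 in 10 comparisons. The biological coefficient of variation was 0.115 in the RIP and 0.384 in the fractionation table. The fit was tested on simulated data. Alternatives were scaling by library size alone or by the size factors of DESeq2 (1.42.0), no filter, the DESeq2 test, the compared groups only, a replicate block, each library left out in turn and, added after seeing the data, a fit without mt-Nd6. The text names all 10 members, up to 4 called genes per linked list and comparison with the largest change, members' copies and neighbours within 5 kb, and the 3 genes closest to the members' mean log2 CPM (at least 20 counts on average, prior count 2); some genes that fall under it are not reported here, and any listed gene outside it was chosen after its values were seen. The members and lists were chosen with earlier results of these data known. Promoters and spans came from RefSeq (GRCm38.p6) and all 10 members matched. Python 3.11.15 with pandas 2.3.3, numpy 2.4.6, scipy 1.17.1 and matplotlib 3.10.9 was used. Floors cover the counting error of the group at 0 counts only, and not that of the group set against it.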

Additional observations from a re-analysis of the deposited data

Results flagged for a closer look

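The change from input to IP differed between the GFP and GFP-Mkrn3 plasmids for 6 of the 10 genes by the test of that difference, where 24.3% of all 13052 rows tested were called. The count was 3 without GFP-Mkrn3 input 2. Of 17 alternatives, Pfkl missed the threshold in 10, Gapdh and Aldoa in 3 each, Pgk1 in 1, and Hk2 and Pkm in 0. Hk2 had a difference of -1.04, Pkm of -0.87, Pgk1 of -0.48 and Pfkl of -0.42 on the log2 scale, lower with GFP-Mkrn3. Gapdh had a difference of 0.70 and Aldoa of 0.38, higher with GFP-Mkrn3. Each group held 3 libraries, and all 6 values come from the same 12 libraries.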

How the results depend on the processing

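Alternatives were run for the count of members called in each comparison and for 48 single-gene results, chosen after their values were seen. Of 27 single-gene results past the threshold, 16 stayed past it in every alternative, 11 missed it in at least 1, and 0 changed sign; 7 not past it were past it in at least 1. In cytoplasmic RNA, Mkrn3ox against wt, 0 members were called as reported, 2 on library size alone, 3 with no filter, and 1 each with DESeq2, the compared groups only and the replicate block; leaving out 1 library gave 0 to 2, the 2 without wt cytoplasm 3. The Mkrn3ox cytoplasm-to-total comparison gave 1 with the compared groups only. The difference between IP-to-input ratios gave 3 to 7 calls when 1 library was left out, against 6, the 3 without GFP-Mkrn3 input 2. The share of all rows called under each alternative is not given here. These counts of members therefore have no background and are not results about the members. Values that changed sign, none of them called as reported, were on library size alone Tpi1 in cytoplasm (0.17), Ldha in the GFP IP (-0.06) and Ldha in the difference between the ratios (0.03); for Gapdh in the GFP-Mkrn3 IP -0.02 with the replicate block and -0.23 to 0.19 with 1 library left out (below 0 without GFP-Mkrn3 IP 2 at -0.23 or input 2 at -0.04); for Hk2 in the GFP-Mkrn3 IP -0.02 to 0.14 with 1 left out (-0.02 without GFP-Mkrn3 IP 3); and for Eno1 IP against IP -0.11 to 0.38 (-0.11 without GFP-Mkrn3 IP 2, and 0.38, past the threshold, without GFP-Mkrn3 IP 3). The cause was not tested. Libraries with the same replicate number did not deviate together (r of -0.0669 to 0.0393 in the fractionation and -0.146 to 0.238 in the RIP, 5 and 8 of 18 pairs best with their own number), so the numbers were not taken as pairs. The fractionation depth, 0 to 585 counts per tested member and library, limits what could be detected there. So does the strand setting of the counting, which is not given: each fractionation value is that of a row with the gene's name.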
